A study of Mus musculus with 2 samples.

Results

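The let-7 family was examined in microRNA sequencing of facial prominences from mouse embryos at embryonic day 10.5. The members are the 10 let-7 hairpin genes that have a row of their own in the deposited tables, found by symbol among 1973 miRNA genes: Mirlet7a-1, Mirlet7a-2, Mirlet7b, Mirlet7c-1, Mirlet7c-2, Mirlet7d, Mirlet7f-2, Mirlet7g, Mirlet7i and Mir98. Mirlet7e and Mirlet7f-1 have no such row. Their reads stand on the opposite strand of the annotated genes Gm25927 and Gm24111 and are given beside the family. The material was a single group of 2 biological replicates of strain B6NCrl, each a pool of embryos of both sexes. Replicate 1 pooled 69 embryos and replicate 2 pooled 51. No treatment, genotype or second stage is among these samples. The labels call the tissue healthy, and the small RNA inserts were shorter than 30 nt. Every difference between the libraries below is therefore a difference between replicates of 1 group and not an effect of a condition.

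let-7 miRNAs are made from stem-loop precursors that are cut by Drosha in the nucleus and then by Dicer, and the mature strand guides Argonaute to target mRNAs by its seed, the bases near its 5′ end. Known targets of let-7 include Lin28a, Hmga2 and Ras genes, and mature let-7 accumulates as embryonic cells leave the progenitor state. The RNA-binding protein Lin28 holds mature let-7 low in early embryos by binding the precursor's terminal loop, in part at a GGAG motif, after which the precursor is uridylated and degraded.

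The mature sequences show which members can be told apart by reads. All 12 hairpins of the family matched an entry of RefSeq (GRCm38.p6). The 5′ arms are printed with the seed, bases 2 to 8, in capitals:

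let-7a-5p: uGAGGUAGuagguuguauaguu
let-7b-5p: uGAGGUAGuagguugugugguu
let-7c-5p: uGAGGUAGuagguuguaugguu
let-7d-5p: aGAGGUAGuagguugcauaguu
let-7e-5p: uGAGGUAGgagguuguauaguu
let-7f-5p: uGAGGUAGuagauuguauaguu
let-7g-5p: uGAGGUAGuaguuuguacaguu
let-7i-5p: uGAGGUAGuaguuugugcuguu
miR-98-5p: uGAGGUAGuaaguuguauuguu

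The seed GAGGUAG was the same in all 12 hairpins. With positions counted from 1 at the 5′ end and let-7a-5p as the reference, let-7c-5p differed by A19G alone and let-7f-5p by G12A alone. The arm of let-7e differed by U9G, that of let-7g by G12U and U18C, and that of let-7i by G12U, A17G, U18C and A19U. The 5′ arms of Mirlet7b, Mirlet7d, Mirlet7g, Mirlet7i and Mir98 were found in no other hairpin of the 1005 in the table. The let-7a arm lies in both Mirlet7a-1 and Mirlet7a-2, the let-7c arm in both Mirlet7c-1 and Mirlet7c-2, and the let-7f arm in both Mirlet7f-1 and Mirlet7f-2. Mirlet7a-1 and Mirlet7c-2 also share their 3′ arm, so neither arm of these members is their own. Reads mapping to several places made up 27.6% of reads in replicate 1 and 25.9% in replicate 2 and are in no gene's count. How many of them are let-7 reads was not tested. The 5 members with a 5′ arm of their own held 98.1% of the family's counts, the 3 with only a 3′ arm of their own (Mirlet7a-2, Mirlet7c-1 and Mirlet7f-2) 1.74%, and the 2 with neither 0.198%. By exact match among these hairpins, the first 5 members are thus free of a shared 5′ arm. The levels of the let-7a, let-7c and let-7f copies are only what was assigned to a single place. Matches elsewhere in the genome were not searched, and how the aligner treats mismatches is not known. The let-7b arm differs from that of let-7c by 1 base. Whether each sequence entered the libraries equally well was not tested, so levels are compared as reads. All 5′ arms are 22 bases long, and levels are reads per hairpin, not divided by length.

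The libraries held 2853511 and 3517226 counts on the strand of a miRNA gene, and levels are counts scaled to these totals (CPM), as mean ± SD over the 2 libraries. The SD measures the spread between 2 pools. The intervals and the tests account for counting error alone and treat reads as independent. Amplified reads are not independent molecules, so the intervals can be too narrow and the p-values too small. The tissue label was set beside miRNA markers, which cannot settle it because genes of other lists were detected as well. All 6 mesenchymal genes (led by Mir214) and all 7 epithelial genes (led by Mir205) were detected, which here means 10 or more counts in both libraries. Liver Mir122, at 12.6 and 15.4 CPM, was detected too, as were 4 of 5 Hox and trunk genes. Of 4 measured striated muscle genes 1 was detected, Mir206, with Mir133a-1 and Mir133a-2 at 0 counts in both libraries. Reads that map to several places are in no gene's count. A low or 0 count at a gene with several copies therefore does not show that its miRNA was absent.

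Of the reads assigned to the 10 members, most lay on Mirlet7g and Mirlet7i. These sums leave out Mirlet7e and reads that map to several places. The 10 members summed to 9768 CPM in the first library and 5411 CPM in the second (7589 ± 3080 CPM, n = 2). These are 0.977% of counts in replicate 1 (exact Clopper-Pearson 95% interval 0.965% to 0.988%) and 0.541% in replicate 2 (0.533% to 0.549%). Mirlet7g and Mirlet7i together made up 8870 and 4814 CPM of these sums, and the other 8 members 897 and 597 CPM. In RNA from a whole tissue, fewer cells of a type and less RNA per cell cannot be told apart.

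Mirlet7g, in an intron of Wdr82 (chr9:106178840-106178927, plus strand, mm10), was the highest member. Its level was 5500 and 3321 CPM in replicates 1 and 2, a mean of 4410 ± 1540 CPM that ranked 48 among all 1973 genes. Mirlet7i, which overlaps an exon of the transcribed pseudogene D630033A02Rik (chr10:122985640-122985724, minus strand), had 3371 and 1493 CPM (2432 ± 1328 CPM, rank 66). Mirlet7g was above Mirlet7i within each library, but their ranges met, since the lower value of Mirlet7g (3321 CPM) lay below the higher of Mirlet7i (3371 CPM).

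Mirlet7d, in an exon of the long non-coding RNA 6720427I07Rik (chr13:48536012-48536114, minus strand), followed far below with 381 and 278 CPM (330 ± 72.5 CPM). Mir98, which carries the let-7 seed under another name, lies in an intron of the ubiquitin ligase gene Huwe1 (chrX:151913214-151913321, plus strand). Its level was 332 and 196 CPM (264 ± 95.9 CPM). Mirlet7d was above Mir98 within each library, but their ranges over the libraries met, while both lay below Mirlet7i in both libraries. The 5′ arm of Mirlet7b (chr15:85707319-85707403, plus strand, in an exon of Lncppara) is its own as well, yet it had only 32 counts in replicate 1 and 20 in replicate 2, or 11.2 and 5.69 CPM.

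For members with a shared 5′ arm the values are only the reads assigned to a single place. Mirlet7f-2, in Huwe1 beside Mir98 (chrX:151912346-151912428), had 117 and 71.9 CPM, the highest level among them. Mirlet7c-1 (chr16:77599657-77599750, in an intron of Mir99ahg) had 20.3 and 19.6 CPM, and Mirlet7a-2 (chr9:41536716-41536811, in introns of 3110039I08Rik and Gm49317) had 19.98 and 11.9 CPM. Mirlet7a-1 (chr13:48538179-48538272, in an exon of 6720427I07Rik) had 12.6 and 11.7 CPM. The lowest member was Mirlet7c-2 (chr15:85706603-85706697, in an exon of Lncppara) with 9 and 7 counts, or 3.15 and 1.99 CPM, above the 1.05 and 0.853 CPM that a count of 0 allows (3 counts). All 9 pairs of neighbours in the order of means kept that order within each library. In 5 of them the ranges over the libraries were also apart. The ranges met for Mirlet7g with Mirlet7i, Mirlet7d with Mir98, Mirlet7c-1 with Mirlet7a-2, and Mirlet7a-2 with Mirlet7a-1.

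**Figure D1:**
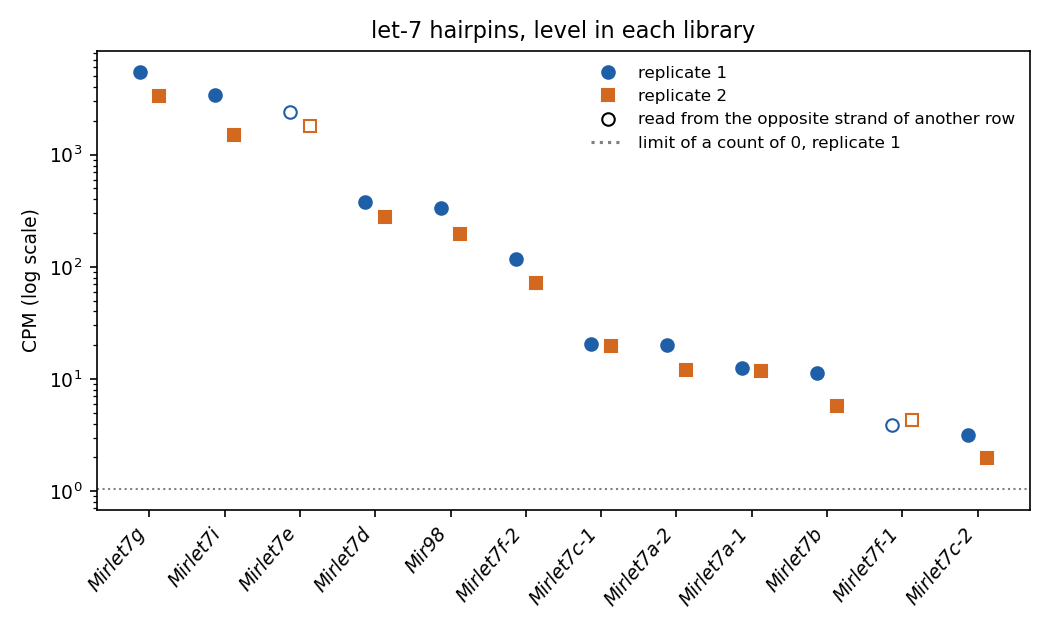
Level of each let-7 hairpin in CPM on a log axis, ordered by mean, with circles for replicate 1 and squares for replicate 2; open symbols are hairpins read from the opposite strand of another row, and the dotted line is the limit of a count of 0 in replicate 1. Mirlet7g, Mirlet7i and Mirlet7e lie highest in both libraries, and Mirlet7c-2 and Mirlet7f-1 lie lowest.

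Mirlet7e, in an intron of Spaca6 (chr17:17830352-17830444, plus strand), would have been the third highest hairpin of the family by mean, and lay above Mirlet7i in replicate 2. The row at this place is Gm25927, annotated on the minus strand (17830343 to 17830459), which had 0 counts on its own strand. On the opposite strand, that of Mirlet7e, it had 6837 counts in replicate 1 and 6382 in replicate 2, or 2396 and 1814.5 CPM. With Mirlet7e added, the family summed to 12164 and 7226 CPM. The same arrangement holds at Mirlet7f-1 (chr13:48537829-48537917, minus strand), where Gm24111 had 0 counts on its own strand and 11 and 15 on the other (3.85 and 4.26 CPM). Mirlet7f-1 was looked up after the data were seen, and its 5′ arm is shared with Mirlet7f-2.

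All 10 members had a lower CPM in replicate 2 than in replicate 1, and 7 of them passed a test against the counting error of independent reads. The test was an exact two-sided binomial test of how a gene's counts divide between the libraries, given their totals. Its p-values were adjusted by the Benjamini-Hochberg method over 449 genes that had 10 counts or more in all. It called 7 of the 10 members lower and 0 higher, where 40.3% of all tested genes were called, 20.3% lower and 20% higher. The median log2 ratio, replicate 2 over 1 after adding 0.5 CPM to each, was -0.72 over the 9 members detected in each library and 0.01 over all 376 detected genes. Of those 376 genes 48.9% had a ratio below 0. These counts describe the libraries and are not independent evidence, since the lower let-7 of replicate 2 was known when the members were chosen.

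Mirlet7i differed most among the members with a narrow interval. Its log2 ratio without pseudocount was -1.17 (exact 95% counting interval -1.22 to -1.13), so its CPM was 2.26-fold higher in replicate 1. Mirlet7g had a ratio of -0.73 (-0.76 to -0.69), or 1.66-fold higher in replicate 1. The intervals of Mirlet7i and Mirlet7g did not overlap. Mir98 had a ratio of -0.76 (-0.90 to -0.62, adjusted p = 2.81e-25, exact binomial test) and Mirlet7f-2, its neighbour in Huwe1, -0.71 (-0.95 to -0.47, adjusted p = 1.59e-08, exact binomial test). These ratios were close to that of Mirlet7g, and the 3 intervals overlapped. Mirlet7d had a smaller difference, with a ratio of -0.45 (-0.58 to -0.33, adjusted p = 6.28e-12, exact binomial test), and its interval did not overlap those of Mirlet7i, Mirlet7g and Mir98.

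The 2 other members past the test rested on few reads. Mirlet7b had a ratio of -0.98 with a wide interval (-1.86 to -0.13, adjusted p = 0.0442, exact binomial test), and it did not pass when TMM factors, the counts on either strand or every gene with a count were used (adjusted p of 0.0626, 0.0646 and 0.0725). Mirlet7a-2 had a ratio of -0.74 (-1.35 to -0.14, adjusted p = 0.0303, exact binomial test). Mirlet7c-1 at -0.05 (-0.58 to 0.48), Mirlet7a-1 at -0.11 (-0.80 to 0.57) and Mirlet7c-2 at -0.66 (-2.32 to 0.93) did not pass, and their intervals include both no difference and a ratio as low as that of Mirlet7d. Of the 36 pairs of detected members 10 had intervals that did not overlap, 6 of which include Mirlet7i. The share of such pairs among all detected genes was not computed. This count therefore only describes the members, and whether it is particular to them was not tested.

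**Figure D2:**
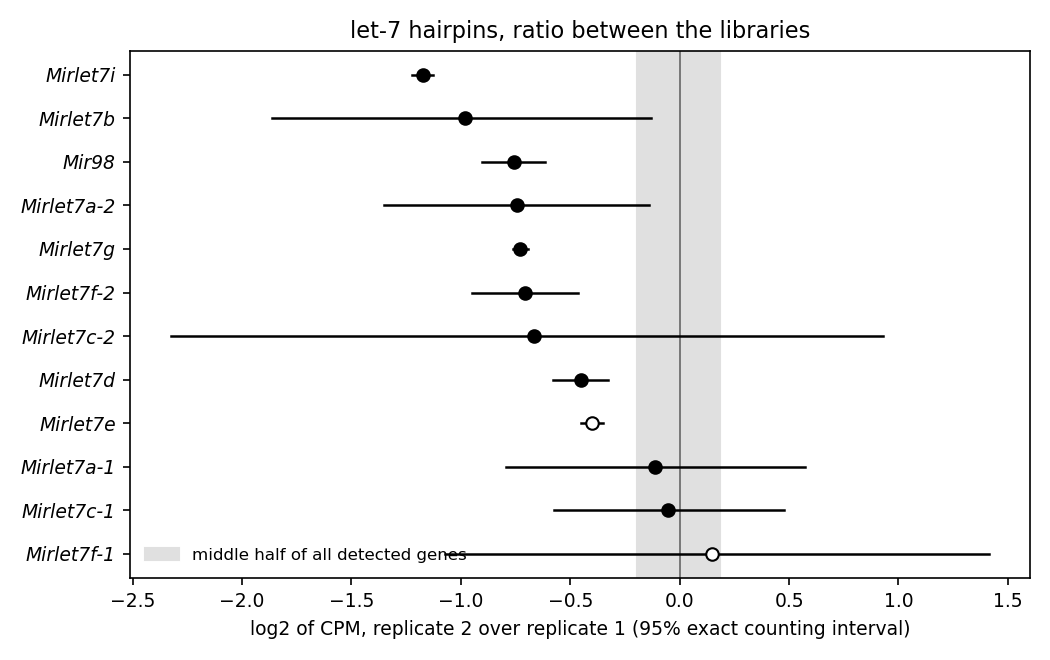
Log2 of CPM in replicate 2 over replicate 1 for each let-7 hairpin (points, without pseudocount) with exact 95% counting intervals (lines); open points are Mirlet7e and Mirlet7f-1, and the grey band runs from the lower to the upper quartile of all 376 detected genes (-0.20 to 0.18). Mirlet7i lies furthest from 0 at -1.17, Mirlet7g, Mir98 and Mirlet7f-2 lie close together, and the interval of Mirlet7f-1 is the one centred above 0.

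Mirlet7e, counted on the opposite strand, had a ratio of -0.40 (-0.45 to -0.35) and was 1.32-fold higher in replicate 1. With counts on either strand its row passed the exact binomial test (adjusted p = 3.16e-56), where 20.3% of the 462 genes so tested were lower in replicate 2. Its interval overlapped that of Mirlet7d and did not reach those of Mirlet7g and Mirlet7i. Mirlet7f-1 had a ratio of 0.15 (-1.07 to 1.41), which does not fix a direction.

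Compared with all detected genes, most members lay in the low tail of ratios between the libraries. Mirlet7i had 6 of 376 detected genes at or below its ratio, itself included, Mirlet7g 14 and Mirlet7d 38 (10.1%). For Mirlet7a-1 and Mirlet7c-1 the counts were 136 and 159 genes, near the middle. Among 210 genes that averaged 100 CPM or more, 3 had a ratio at or below that of the family's sum (-0.85), namely Mirlet7i, the erythroid Mir451a and Mir7b.

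**Figure D3:**
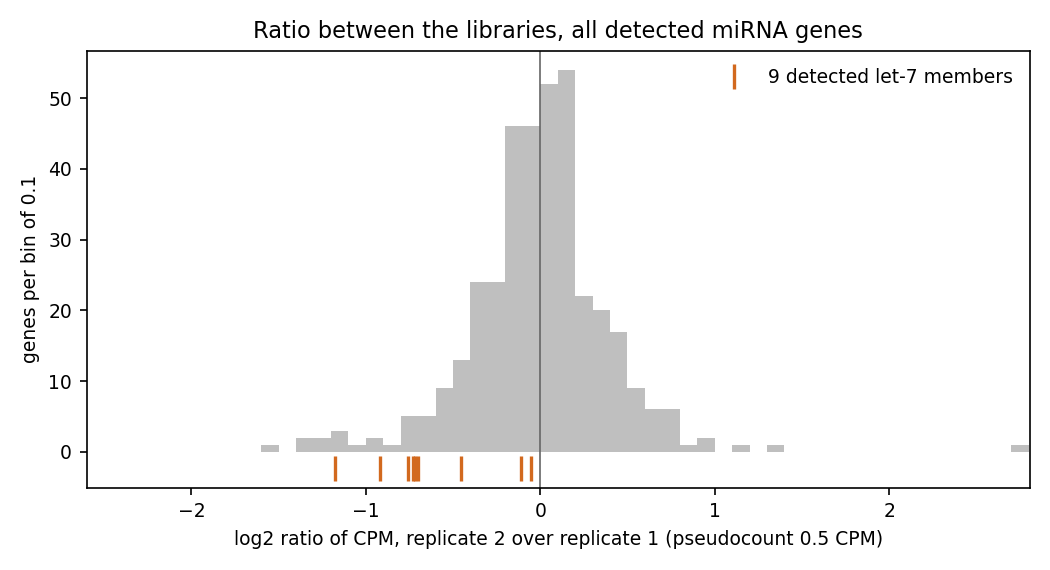
Number of detected miRNA genes (376) per bin of 0.1 in the log2 ratio of CPM, the second library over the first, after adding 0.5 CPM; the ticks under the bars mark the 9 detected let-7 members. All 9 ticks lie left of 0, and 7 of them lie at -0.45 or below.

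The make-up of the counts of the 10 members, without Mirlet7e, differed between the libraries. Mirlet7i took 34.5% of the family's counts in replicate 1 (exact Clopper-Pearson 95% interval 34.0% to 35.1%) and 27.6% in replicate 2 (27.0% to 28.2%). Mirlet7g took 56.3% (55.7% to 56.9%) and 61.4% (60.7% to 62.1%). The share of Mirlet7d was 3.90% (3.68% to 4.13%) and 5.14% (4.83% to 5.47%), and that of Mir98 was 3.39% (3.18% to 3.61%) and 3.62% (3.36% to 3.90%). Mirlet7c-1 took 0.208% (0.158% to 0.269%) and 0.363% (0.282% to 0.459%). These shares do not depend on the library totals, and the intervals of Mirlet7i, Mirlet7g, Mirlet7d and Mirlet7c-1 were apart between the libraries, while those of Mir98 overlapped.

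**Figure D4:**
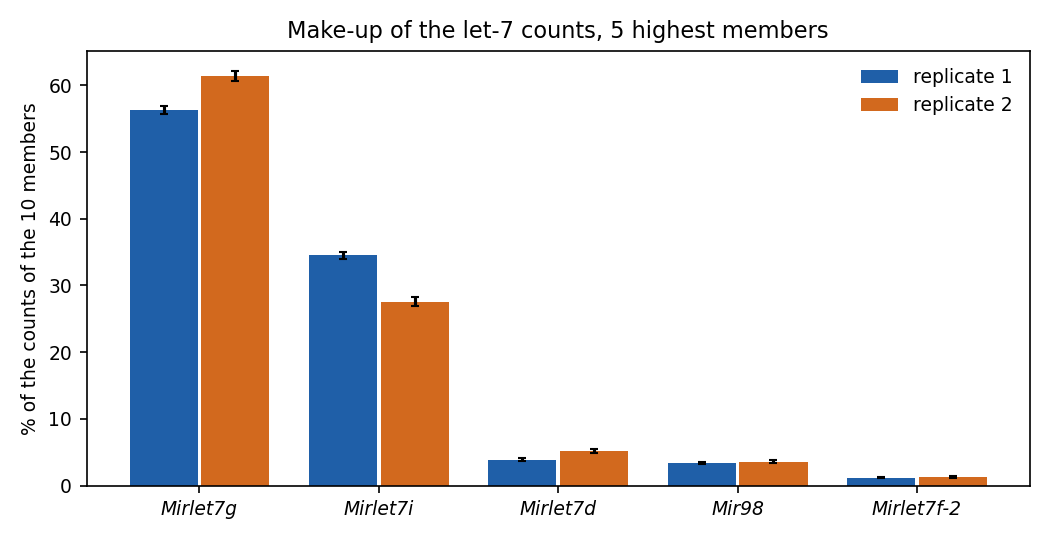
Share of the family's counts, in percent, taken by the 5 highest members in replicate 1 and replicate 2, with exact 95% Clopper-Pearson intervals as error bars. The bar of Mirlet7i is lower and those of Mirlet7g and Mirlet7d are higher in replicate 2.

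Several let-7 hairpins lie in clusters with miRNAs of other families, the best known being those with a miR-99 or miR-100 and a miR-125 gene. At these loci the let-7 hairpin was the lowest in both libraries. On chromosome 16, Mir99a, 0.656 kb from Mirlet7c-1, had 43118 and 38635 CPM, or 2121 and 1969 times the level of Mirlet7c-1. On chromosome 9, Mir100, 5.21 kb from Mirlet7a-2, had 10893 and 11740 CPM, or 545 and 983 times the level of Mirlet7a-2. The miR-125 partners were nearer, Mir125b-2 at 20.4 and 21.7 times Mirlet7c-1 and Mir125b-1 at 79.8 and 109 times Mirlet7a-2. Both of these let-7 copies share their 5′ arm with another hairpin, so the ratios also contain the reads not assigned to them. At Spaca6 the let-7 arm is its own, and the gap to each partner was smaller. Whether the sharing of arms accounts for this was not tested. Mir99b, 94 bases from Mirlet7e, had 25929 and 24500 CPM, or 10.8 and 13.5 times the level of Mirlet7e. Mir125a, 367 bases away, had 2801 and 2596 CPM, or 1.17 and 1.43 times its level.

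The let-7 hairpin and its partners did not always keep the same ratio between the libraries. Mir99b had a log2 ratio of -0.08 (exact 95% counting interval -0.10 to -0.07) and Mir125a of -0.11 (-0.15 to -0.07), and neither interval overlapped that of Mirlet7e at -0.40. Mir100 had a ratio of 0.11 (0.09 to 0.13), which did not overlap that of Mirlet7a-2, while the interval of Mir125b-1 (-0.35 to -0.23), 45.1 kb away, did. At the other loci the intervals overlapped. Mir99a at -0.16 and Mir125b-2 at 0.03 lay within the wide interval of Mirlet7c-1. Counts of Mir125b-1 and Mir125b-2, too, are only the reads assigned to a single place. Within Huwe1, Mir98 had 2.82 and 2.72 times the level of Mirlet7f-2. On chromosome 13, Mirlet7d had 30.2 and 23.9 times the level of Mirlet7a-1, 2.06 kb away, which has no arm of its own.

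**Figure D5:**
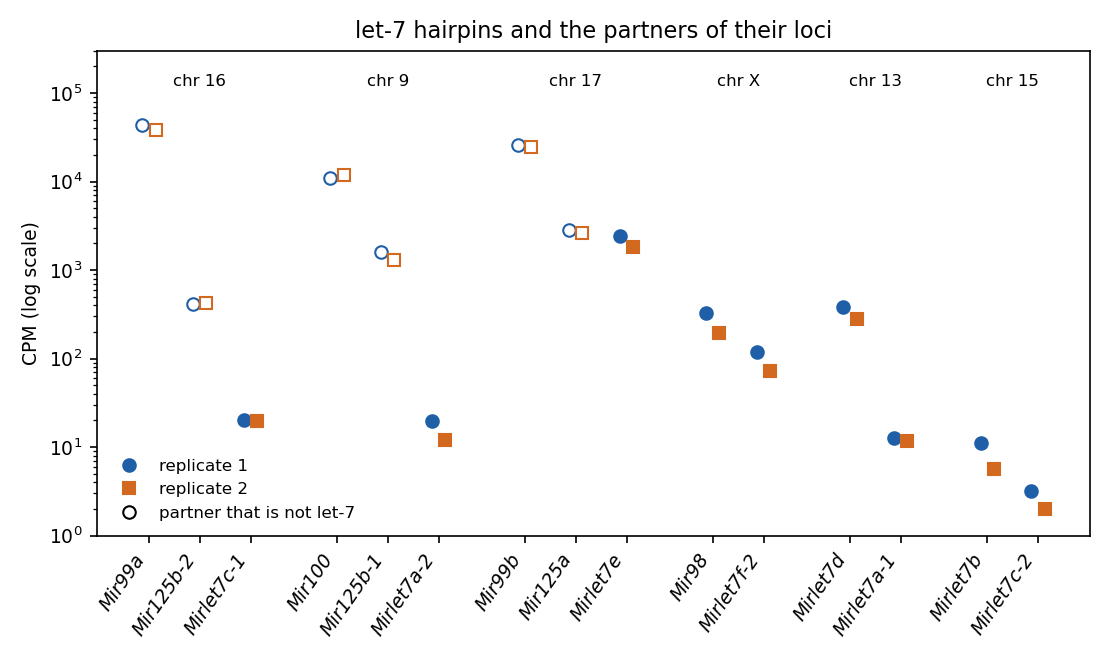
Level in CPM on a log axis of the let-7 hairpins (filled) and the partners of their loci that are not let-7 (open), grouped by chromosome, with circles for replicate 1 and squares for replicate 2. On chromosomes 16, 9 and 17 the let-7 hairpin is the lowest of its locus, and the gap is smallest at Mirlet7e on chromosome 17.

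The terminal loops, the stretch between the arms where Lin28 is known to bind, are shown for 3 members that hold GGAG and 2 of those that do not, with GGAG in capitals:

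Mirlet7g loop: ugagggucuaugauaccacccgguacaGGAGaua
Mirlet7i loop: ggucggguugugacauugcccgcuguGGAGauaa
Mirlet7d loop: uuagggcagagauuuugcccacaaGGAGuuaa
Mirlet7b loop: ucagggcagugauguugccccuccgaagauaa
Mirlet7c-2 loop: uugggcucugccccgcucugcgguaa

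These loops lie at chr9:106178868-106178901, chr10:122985664-122985697, chr13:48536046-48536077, chr15:85707347-85707378 and chr15:85706638-85706663, in that order (GRCm38.p6). The letters GGAG were found in the loops of 9 of the 12 let-7 hairpins, searched on the RNA strand only, 3 bases from the 3′ arm in Mirlet7g and 4 bases from it in the others. Among 50 other hairpins with a loop of 23 to 36 bases, 7 (14%) held it. The letters NGAU, a short form of the site known for the cold shock domain of Lin28, were found in 10 of 12 let-7 loops, missing in Mirlet7c-1 and Mirlet7c-2, and in 8 of the 50 others (16%). In 7 let-7 loops an NGAU match overlapped GGAG. Matches that did not overlap it were found in Mirlet7b, Mirlet7d, Mirlet7g and Mirlet7f-1, among others. A match is a description of letters and no measure of binding.

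Other miRNAs known to repress Lin28 mRNA are those of the miR-125, miR-9 and miR-30 families. Of 12 genes on this list 11 had a row and 10 were detected, and 6 were lower and 0 higher in replicate 2 by the exact binomial test, where 20.3% of all tested genes were lower and 20% higher (median log2 ratio of the detected -0.12). The largest was Mir30e with 24676 and 19789 CPM (log2 ratio -0.32). Of those called, Mir9-3 had the lowest ratio (-0.52, counting interval -0.93 to -0.13) at 41.0 and 28.4 CPM, and the others lay between -0.32 and -0.11. Listed genes with several copies, such as Mir9-3 and Mir125b-1, hold only the reads assigned to a single place. Of 3 other precursors known to be bound by Lin28 through GGAG, Mir107 (-0.29) and Mir143 (-0.20) were lower in replicate 2 and Mir200c (-0.02, adjusted p = 0.464, exact binomial test) did not pass. Mir1961 and Mir7k, the only further genes with the let-7 seed, had 0 counts in both libraries.

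The genes with a ratio most like that of the family's sum, among 206 non-members averaging 100 CPM or more, were Mir181b-2 (-0.70), Mir182 (-0.63), Mir203 (-0.62), Mir211 (-0.59) and Mir200a (-0.58). Likeness here is the distance in log2 ratio over 2 libraries, from 0.15 to 0.27. Mir203 and Mir200a are epithelial miRNAs, and Mir182 belongs to the cluster known from sensory organs. The epithelial list as a whole ran from -0.62 (Mir203) to -0.02 (Mir200c). Whether a ratio like that of the family goes with a tissue was not tested.

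Markers of cell types also differed between the libraries. The counts below stand beside 20.3% of all 449 tested genes lower and 20% higher by the test, and 48.9% of detected genes with a ratio below 0. The epithelial list summed to 28691 and 23965 CPM, with 7 of 7 genes lower in replicate 2 and 6 past the exact binomial test. The mesenchymal list summed to 26190 and 23099 CPM, with 3 of 6 genes lower by the test. The early embryo list (Mir302 and Mir290 clusters, known from pluripotent cells) summed to 13454 and 20305 CPM, with 7 of 8 measured genes higher by the test. The erythroid list summed to 420 and 205 CPM with 1 of 3 lower (Mir451a). Mir451a held most of this sum in both libraries. Mir144 and Mir486 did not pass the test, and the CPM of Mir486 was higher in replicate 2. The Hox and trunk list summed to 360 and 609 CPM with 3 of 4 tested genes higher. The striated muscle list summed to 26.3 and 10.8 CPM with 1 tested gene, Mir206, lower. The neural list summed to 723 and 630 CPM, of which Mir137 alone had 680 and 593 CPM. Of its 4 tested genes 2 were lower and 2 higher. The 2 higher genes rested on few counts, 3 and 16 for Mir124a-2 and 0 and 12 for Mir124a-3. Reads that map to several places are not in these counts. Endothelial Mir126a had 31642 and 34369 CPM and was higher by the test, the leukocyte list had 433 and 422 CPM and liver Mir122 12.6 and 15.4 CPM, with 0 called. No marker with a row other than Mir133a-1 and Mir133a-2 was at 0 counts in both libraries. The part of these differences in the lower let-7 of replicate 2 was not tested.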

How the data were processed

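The authors deposited a table of unnormalized read counts for each library, made on mm10 with GENCODE M4 according to the notes deposited with them. Aligner and counter: not given in the sources used here. Each table has 4 summary lines and 1973 genes with counts on either strand, the gene's strand and the opposite strand. The gene's strand was used. Of reads, 21.6% and 24.1% were unmapped and 9.01% and 9.32% lay outside the genes. Symbols and hosts came from GENCODE M21 (1894 identifiers matched), sequences from RefSeq. The main test was an exact binomial test in scipy 1.17.1. It was tried on simulated counts that held counting error alone, so its behaviour under variation between pools was not tested. TMM factors came from edgeR 4.0.16 and size factors from DESeq2 1.42.0. A gene was tested with 10 counts in all and called at an adjusted p under 0.05. The members and lists were chosen with earlier results of these data known. Named were the members, Gm25927, locus partners, genes with the let-7 seed, 2 Lin28 lists, the marker lists and the 5 genes of most similar ratio. Mirlet7f-1, Gm24111, Mir7j, Mir451a and Mir7b were added to these once their values had been seen. The sequence of 1 loop without GGAG is not reported here.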

Additional observations from a re-analysis of the deposited data

Results flagged for a closer look

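Reads on the opposite strand of a miRNA gene lie outside the counts of the gene's strand, and at 2 let-7 hairpins they exceeded the 3 counts that a count of 0 allows. The strand of Mirlet7e, opposite Gm25927, held 6837 counts in replicate 1 and 6382 in replicate 2. The strand of Mirlet7f-1, opposite Gm24111, held 11 counts in replicate 1 and 15 in replicate 2. Among the 10 members with a row, Mirlet7b had 1 opposite-strand count in replicate 2 and the others had 0 in both libraries.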

How the results depend on the processing

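The family's sum (7589 CPM) came to 15214 CPM with totals that leave out the 10 highest genes and 3142 CPM with totals of all reads, because the denominator changed. Without either replicate it was 5411 and 9768 CPM. The count of members lower in replicate 2 was 5 to 7 over 7 alternatives with 0 higher, and it was 5 where only the 6 members with 100 counts were tested. The median log2 ratio lay between -0.76 and -0.70 over 11 alternatives, and was -0.76 over the 5 members whose 5′ arm is in no other hairpin. With Mirlet7e and Mirlet7f-1 added, alternatives chosen after seeing the data, the sum was 9699 CPM and the median -0.70. Mirlet7b lost its call under 3 alternatives, and no direction reversed. The number of separated neighbours was 5 under each of 5 scalings. No paired analysis was possible because there is 1 group. The ratio between the libraries has no estimate without either replicate. Depth limits Mirlet7c-2, Mirlet7b, Mirlet7a-1, Mirlet7a-2, Mirlet7c-1 and Mirlet7f-1, with at most 127 counts over both libraries each.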

Other observations

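A further gene, Mir7j, carries the miRNA named let-7j and was looked up after its value was seen. Over the 22 bases of let-7i-5p the sequence of let-7j differs at 1 position, G8U, counted from 1 at the 5′ end with let-7i as the reference, and this base, in capitals below, changes the seed.

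let-7i-5p: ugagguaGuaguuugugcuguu
let-7j: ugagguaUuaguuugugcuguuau

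Mir7j (chr3:140028281-140028304, the mature sequence) had 32 counts in replicate 1 and 12 in replicate 2, or 11.2 and 3.41 CPM. Its log2 ratio of -1.58 with a pseudocount of 0.5 CPM (adjusted p = 0.000735, exact binomial test) lay on the same side as that of Mirlet7i. Whether these reads came from Mir7j or from let-7i was not tested.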
